A study of Mus musculus with 72 samples.

Results

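The comparison described here is that of pancreatic islets from C57BL/6J mice after 13 days on a high-fat diet (HFD) with islets from C57BL/6J mice kept for the same 13 days on regular chow (RC). It holds 4 HFD and 4 RC libraries, chosen by the strain, day and diet in the sample labels, out of 69 libraries of mouse islet RNA with values, and all 14604 genes of the table were tested. The labels spell the strain C56BL/6J, which is read here as C57BL/6J, as the series text has it. The mice were male and 8 weeks old per the labels, with no transgene or drug named, and the composition of the HFD is not given in the sources used here. Islets were freed with Liberase, picked by hand and left overnight in culture medium before RNA was taken, with 120 to 150 islets per mouse, so all groups share a night away from the diet. Other groups of the study used here are C57BL/6J islets at day 5 (8 libraries) and day 33 (7 libraries), and day 13 islets of DBA/2J mice (7 libraries) and BALB/cJ mice (8 libraries), each fed HFD or RC.

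Islets are small clusters of endocrine cells in the pancreas, in which beta cells make insulin and lie beside alpha cells (glucagon), delta cells (somatostatin) and PP cells (pancreatic polypeptide). Beta cells fold proinsulin in the endoplasmic reticulum (ER), store insulin in granules and release it when glucose metabolism opens calcium channels, a step that gut hormones strengthen through G protein-coupled receptors. A diet rich in fat raises the demand for insulin, and the islets of C57BL/6J mice are known to answer with more secretion and, over longer feeding, with growth.

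The 8 libraries held between 19503715 and 27064179 reads over the listed genes (median 23539090), and all held much insulin RNA. Ins1 and Ins2, the insulin genes, took 12.1% to 18.5% of the reads, and the glucagon gene Gcg stood between 14.56 and 15.09 log2 CPM (reads per gene scaled to library size, on the log2 scale). The libraries of the same diet were not alike. In a principal component analysis of these 8 libraries the first component carried 30.5% of the variance and set HFD libraries 3 and 4 (-23 and -31) apart from HFD libraries 1 and 2 (-8 and 0.2), while the RC libraries lay between 7.8 and 19.9. In each diet libraries 3 and 4 carry higher numbers in their sample titles than libraries 1 and 2, and what these numbers stand for is not given in the sources used here. Differences within libraries 1 and 2 and within libraries 3 and 4, each being 2 against 2, are given beside the results that follow.

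After 13 days more genes fell than rose, most of them by small amounts. The lower genes included Ucn3, ER folding enzymes and lysosomal genes, and the higher ones included the clock genes Per3 and Hlf and Rbm3, the gene of a cold-inducible RNA-binding protein. Ucn3, which encodes urocortin 3, a peptide that mature beta cells release with insulin, fell by 0.67 ± 0.11 on the log2 scale (± SE), with an adjusted p of 0.00163 from limma after Benjamini-Hochberg correction. Rbm3 rose by 1.30 ± 0.25 (adjusted p = 0.00453), about as far as Per3, a clock repressor gene, which rose by 1.40 ± 0.33 (adjusted p = 0.026). Pdia6, a disulfide isomerase gene of the ER, fell by 0.62 ± 0.15 (adjusted p = 0.0272). The insulin genes, Ins1 at -0.35 ± 0.18 (adjusted p = 0.325) and Ins2 at -0.27 ± 0.21 (adjusted p = 0.555), did not pass the test.

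Among 14604 genes 152 (1.04%) were called at the 0.05 threshold, of which 26 (0.178%) were higher and 126 (0.863%) lower under HFD. An unadjusted p under 0.05 was reached by 2454 genes, 1406 of them lower and 1048 higher, and 51.3% of all genes lay below 0. The list counts given further on are to be read beside these values. Of the called genes 145 were protein coding and 7 were not. The median change was 0.707 among the higher genes and -0.384 among the lower ones, against -0.00583 over all genes, and 89 of the 126 lower genes changed by less than 0.5. The smallest called change was 0.176 in size. All 4 HFD values lay above all 4 RC values in 657 genes (4.50%) and below them in 781 genes (5.35%). Among the called genes the groups were apart in this way in 14 of the 26 higher and 89 of the 126 lower genes.

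These calls rest on few animals. The fit took its estimate of spread from all 69 libraries. With the spread estimated from the C57BL/6J libraries alone 27 genes were called, 15 of them among the 152, and from the 8 libraries alone none, with 2598 genes at an unadjusted p under 0.05. Voom, another way of fitting the same reads, called 246 genes, 148 of them shared. Without HFD library 4 no gene was called (1804 at an unadjusted p under 0.05) and without HFD library 3 the 3 genes Ucn3, Ide and Sirpa remained. Without HFD library 2 the count was 544, and without RC library 1 it was 57 higher and 208 lower, without RC library 2 it was 12, without RC library 3 it was 15 and without RC library 4 it was 43. Each call named below ended without HFD library 4, and all but those of Ucn3, Ide and Sirpa ended without HFD library 3.

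Most differences were larger in libraries 3 and 4 than in libraries 1 and 2. Within libraries 3 and 4 the median change was 1.03 for the higher genes and -0.541 for the lower ones, and within libraries 1 and 2 it was 0.47 and -0.21. Of the called genes 149 had the sign of the whole difference within libraries 1 and 2 and 152 within libraries 3 and 4, against 74.2% and 81.7% of all genes. The genes were called on the same 8 libraries, so this is a description and no check of the calls. The difference was the larger in libraries 3 and 4 for 143 of the 152 genes. The split into these pairs was chosen after values were seen, so a test between them is a description only. By limma 42 of 14604 genes had a diet difference that itself differed between the pairs at an adjusted p under 0.05. Of these 42 genes 11 were among the 152. With only HFD libraries 1 and 2 against the 4 RC libraries, 1 gene was called, Ide. With only HFD libraries 3 and 4, 828 were called, 145 of them among the 152.

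**Figure D1:**
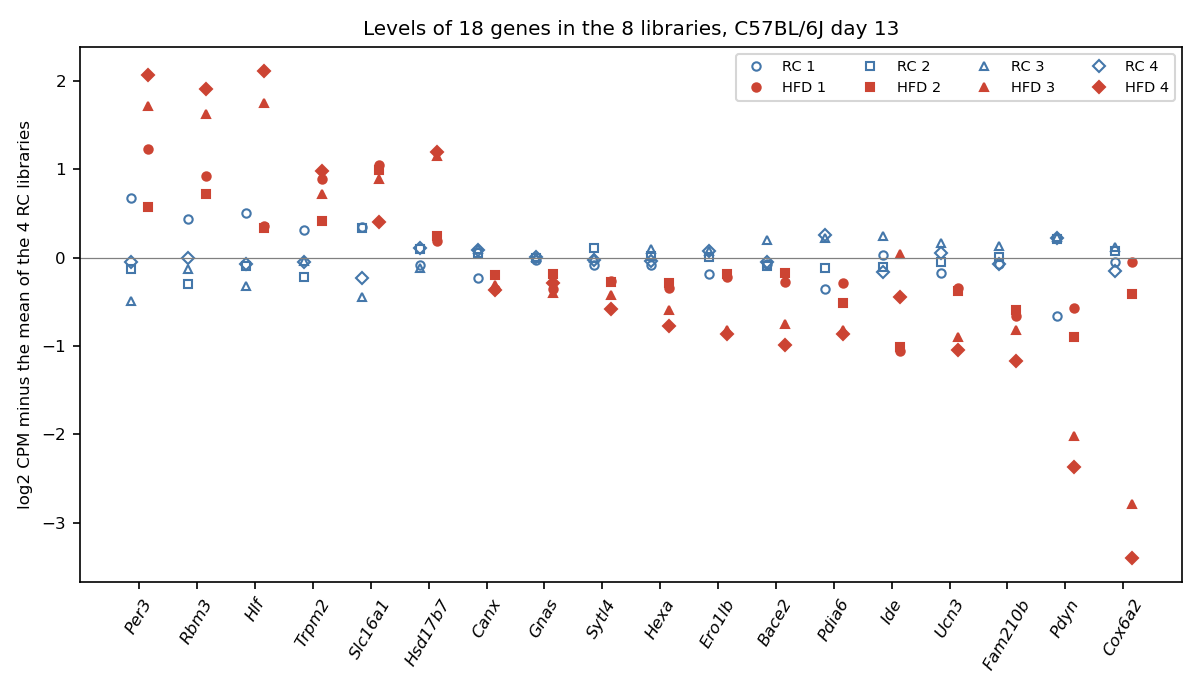
Log2 CPM of 18 named genes in each of the 8 libraries, minus the mean of the 4 RC libraries (vertical axis, log2 units). Open blue symbols are RC and filled red symbols HFD, with 1 symbol shape per library number, and HFD libraries 3 and 4 (triangles and diamonds) lie farthest from the RC libraries for most genes shown.

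**Figure D2:**
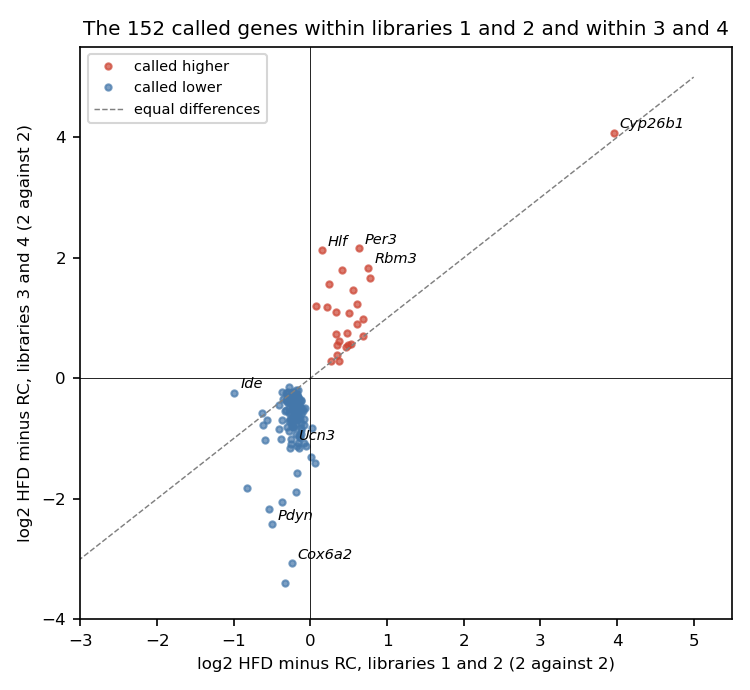
The 152 called genes by their log2 difference (HFD minus RC) within libraries 1 and 2 (horizontal axis) and within libraries 3 and 4 (vertical axis), each from 2 libraries against 2. The dashed line marks equal differences, and 143 genes lie farther from 0 on the vertical axis than on the horizontal one, while Ide lies closer to 0.

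Ucn3 and Car10 had the lowest adjusted p of all genes, and both were lower under HFD. Ucn3 (ENSMUSG00000044988.7, GRCm38 chromosome 13 from 3940688 to 3945349) stood at 8.94, 8.90, 8.38 and 8.23 log2 CPM in HFD libraries 1 to 4 and at 9.11, 9.22, 9.45 and 9.33 in RC libraries 1 to 4. Every HFD value was under every RC value, and the gap was wide in HFD libraries 3 and 4 and narrow in the other two. The difference was -0.25 within libraries 1 and 2 and -1.09 within libraries 3 and 4. Bace2, a protease that cleaves proteins of the beta-cell surface, stood at 8.43, 8.53, 7.95 and 7.72 under HFD against 8.63, 8.61, 8.90 and 8.66 under RC, a fall of 0.55 ± 0.10 (adjusted p = 0.00285). The groups did not overlap, and HFD libraries 3 and 4 were again the lowest. Car10, a carbonic anhydrase-related protein gene, fell by 0.71 ± 0.12 (adjusted p = 0.00163), from 7.07, 7.20, 7.16 and 7.20 under RC to 6.87, 6.87, 6.08 and 5.98 under HFD. Its RC values lay close together, and its HFD values fell in pairs.

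By the rule for named genes (called, expressed above the lowest 25% of genes, protein coding and without overlap between the diets), 81 lower genes qualified, and the 15 with the largest falls were taken. Beside Ucn3, Car10, Bace2, Ero1lb and Hexa they were the zinc finger transcription factor gene Ovol2 (-1.36), the mitochondrial protein gene Fam210b (-0.81), the fibrinogen-like gene Fgl2 (-0.63) and Eepd1 (-0.56). The alpha/beta hydrolase gene Abhd3 (-0.56) and the desmosomal cadherin gene Dsc2 (-0.52) belonged to them as well. So did Kcnip1, a subunit of A-type potassium channels (-0.52), Fkbp1b, whose protein binds the ryanodine receptor (-0.52), the class C receptor gene Gpr158 (-0.51) and the chitinase-domain gene Chid1 (-0.50). Sirpa, an inhibitory surface receptor gene chosen after its values were seen, fell by 0.43 ± 0.08 (adjusted p = 0.00285).

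Of 30 genes of beta-cell identity and insulin production 2 fell, Ucn3 and Ero1lb, and none rose, which is 6.67% of the list against 1.04% of all genes. The list's median difference was -0.0794, against -0.00583 over all genes. Transcription factors of the beta cell did not pass the test. Pdx1, which activates the insulin genes, stood at -0.26 ± 0.09 (adjusted p = 0.11) with HFD values between 7.11 and 7.46 log2 CPM and RC values between 7.52 and 7.69. Nkx6-1 stood at -0.11 ± 0.10 (adjusted p = 0.641), Mafa at -0.09 ± 0.26 (adjusted p = 0.911) and Slc2a2, the glucose transporter gene, at -0.23 ± 0.14 (adjusted p = 0.445). Mlxipl, which encodes the glucose-sensing factor ChREBP, had HFD values between 8.11 and 8.82 and RC values between 7.41 and 8.05, with a difference of 0.55 ± 0.18 (adjusted p = 0.0957).

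Like the insulin genes, the amylin, glucagon, somatostatin, pancreatic polypeptide and peptide YY genes were not called. Iapp, the amylin gene, stood at -0.25 ± 0.11 (adjusted p = 0.214), Gcg at -0.23 ± 0.18 (adjusted p = 0.568) and the somatostatin gene Sst at -0.18 ± 0.15 (adjusted p = 0.605). The pancreatic polypeptide gene Ppy stood at 0.22 ± 0.31 (adjusted p = 0.779) and the peptide YY gene Pyy at 0.53 ± 0.21 (adjusted p = 0.188), with Pyy values of up to 10.97 under HFD and of 9.80 to 10 under RC. In RNA from whole islets, fewer cells of a type and less RNA per cell cannot be told apart.

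Signalling through G proteins carries the incretin and fatty acid signals to the secretory machinery. Gnas, which encodes the stimulatory alpha subunit that couples incretin receptors to cyclic AMP, fell by 0.31 ± 0.07 (adjusted p = 0.0266). It stood at 10.15, 10.32, 10.11 and 10.22 log2 CPM under HFD and at 10.48, 10.50, 10.52 and 10.52 under RC, so all 4 HFD values were below a tight RC group. Unlike Ucn3 and Bace2, its difference was similar in both pairs, -0.26 and -0.36. The Gnas locus (GRCm38 chromosome 2 from 174284320 to 174346744) holds overlapping transcripts, and the strand setting of the read counting is not given in the sources used here. The beta subunit gene Gnb1 fell by 0.18 ± 0.04 (adjusted p = 0.0318) and the gamma subunit gene Gng5 by 0.32 ± 0.08 (adjusted p = 0.0425). These were the 3 called of 23 heterotrimeric G protein subunits (13%, against 1.04% of all genes), a list made after values were seen, with a median of -0.0486.

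The incretin receptors were not called. Gipr, the receptor gene of the incretin GIP, stood at 7.34, 6.75, 6.93 and 7.14 under HFD and 6.58, 6.01, 6.38 and 6.46 under RC. Its groups did not overlap, and the difference of 0.69 ± 0.19 just missed the threshold (adjusted p = 0.0501). Glp1r, the GLP-1 receptor gene, stood at -0.33 ± 0.12 (adjusted p = 0.158). Rgs4, a gene whose protein shortens G protein signals, fell by 0.69 ± 0.16 (adjusted p = 0.0257).

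In the machinery of granule exocytosis 2 of 23 genes fell (8.7%, against 1.04% of all genes) and none rose, with a list median of 0.0602. Sytl4, which encodes granuphilin, a granule docking protein, fell by 0.39 ± 0.08 (adjusted p = 0.00551). Its values were 8.75, 8.74, 8.59 and 8.44 log2 CPM under HFD and 8.93, 9.12, 9.01 and 8.99 under RC, without overlap. Nsf, whose product takes spent SNARE complexes apart, fell by 0.24 ± 0.06 (adjusted p = 0.0266). Vti1b, a SNARE gene of endosomes outside the list, fell by 0.32 ± 0.08 (adjusted p = 0.0267). The list was not of 1 direction: Snap25, a SNARE gene of the plasma membrane, stood at 0.40 ± 0.12 (adjusted p = 0.068) with HFD values of 7.46 to 7.84 against 7.13 to 7.33, and the calcium sensor gene Syt7 stood at 0.18 ± 0.06 (adjusted p = 0.113).

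Atp2a2, which encodes the calcium pump of the ER, fell by 0.43 ± 0.11 (adjusted p = 0.0386), with -0.08 within libraries 1 and 2 and -0.78 within libraries 3 and 4. Ntrk2, a neurotrophin receptor gene, fell by 0.59 ± 0.15 (adjusted p = 0.0358).

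Among folding genes of the ER 3 were called, all lower. The list of ER chaperones and degradation factors held 31 genes. Of these 3 fell, Ero1lb, Pdia6 and Canx, and none rose, which is 9.68% of the list against 1.04% of all genes. The list median was -0.309, and 29 of 31 members were below 0, against 51.3% of all genes. At an unadjusted p under 0.05, 17 members were lower and 1 higher, against 1406 and 1048 of 14604 genes. The median was -0.0268 within libraries 1 and 2 and -0.531 within libraries 3 and 4, and -0.18 without HFD libraries 3 and 4. Of 24 list members with an entry in the RefSeq promoter table (build GRCm38.p6), 9 (37.5%) hold the ER stress element in the window from 250 bases before to 50 after the gene start. The element is the letters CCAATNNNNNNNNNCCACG on either strand, where N is any base, and it is found in 0.137% of all genes in that table and in 0.154% of those expressed here. Of the 99 lower and 23 higher called genes with an entry, Pdia6 and Canx hold it. The 250 bases before the start of each are shown, with the element in capitals, because these are the genes of the list in which a call and the element meet. They lie at chr12:17266339-17266588 on the plus strand (Pdia6) and chr11:50325674-50325923 on the minus strand (Canx).
Pdia6: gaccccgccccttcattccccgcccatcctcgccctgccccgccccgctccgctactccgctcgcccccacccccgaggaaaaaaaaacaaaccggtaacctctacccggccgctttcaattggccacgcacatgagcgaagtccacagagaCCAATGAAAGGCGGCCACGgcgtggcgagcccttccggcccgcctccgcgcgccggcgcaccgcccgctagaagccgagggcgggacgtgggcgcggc
Canx: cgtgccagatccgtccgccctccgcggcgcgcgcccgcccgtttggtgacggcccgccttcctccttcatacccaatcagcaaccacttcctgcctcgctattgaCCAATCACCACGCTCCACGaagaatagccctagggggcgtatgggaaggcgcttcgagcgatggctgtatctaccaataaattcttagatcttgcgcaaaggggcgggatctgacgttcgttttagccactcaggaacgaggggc
The element begins 98 bases before the gene start in Pdia6 and 145 bases before it in Canx. A match of letters is a description and does not show that a factor binds there.

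Pdia6 stood at 9.11, 8.88, 8.58 and 8.53 log2 CPM under HFD and at 9.04, 9.27, 9.62 and 9.65 under RC. HFD library 1 lay above RC library 1, so the groups overlapped, and the difference was -0.16 within libraries 1 and 2 and -1.08 within libraries 3 and 4. Canx, the calnexin gene, fell by 0.31 ± 0.08 (adjusted p = 0.0386), with values of 9.43, 9.58, 9.47 and 9.41 under HFD against 9.55, 9.83, 9.88 and 9.87 under RC. RC library 1 was low for both genes. Ero1lb, the ER oxidase gene of beta cells, fell by 0.52 ± 0.12 (adjusted p = 0.026), from 11.37 to 11.64 under RC to 11.34, 11.37, 10.74 and 10.70 under HFD. HFD libraries 3 and 4 were well below the others. Other chaperone genes missed the threshold: Hsp90b1 stood at -0.44 ± 0.13 (adjusted p = 0.0578), the calreticulin gene Calr at -0.45 ± 0.14 (adjusted p = 0.0715) and the BiP gene Hspa5 at -0.26 ± 0.15 (adjusted p = 0.373). Bcap31, a sorting factor gene of the ER membrane outside the list, fell by 0.34 ± 0.07 (adjusted p = 0.011).

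None of 28 genes of the integrated stress response was called by limma or voom, with 6 lower and 0 higher at an unadjusted p under 0.05. The list median was -0.051, with 12 members above 0 and 16 below. It was -0.28 within libraries 1 and 2 and 0.0546 within libraries 3 and 4. In 8 of the 28 all HFD values were below all RC values, against 5.35% of all genes. The serine synthesis genes Psat1 (-0.62 ± 0.23, adjusted p = 0.148) and Phgdh (-0.58 ± 0.20, adjusted p = 0.124) had all 4 HFD values below the RC values. The RC values ran from 3.96 to 4.14 log2 CPM for Psat1 and from 4.22 to 4.56 for Phgdh. In the list of 24 NRF2 and antioxidant genes limma and voom called none, with 7 lower and 1 higher at an unadjusted p under 0.05. Nqo1, a quinone reductase gene, stood at 2.24, 2.23, 2.58 and 2.31 under HFD and 2.89, 3.06, 2.83 and 2.78 under RC (-0.55 ± 0.17, adjusted p = 0.0782). Its values did not overlap, and the difference was larger within libraries 1 and 2 (-0.74) than within libraries 3 and 4 (-0.36). Gpx3, a glutathione peroxidase gene, stood at -0.50 ± 0.15 (adjusted p = 0.0807) and the heme oxygenase gene Hmox1 at -0.50 ± 0.18 (adjusted p = 0.148).

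The called lysosomal genes were all lower. Of 66 genes of lysosomal hydrolases and membrane proteins 6 fell (9.09%, against 1.04% of all genes) and none rose, with a median of -0.152. Below 0 lay 56 of the 66, against 51.3% of all genes. At an unadjusted p under 0.05 there were 30 lower and 2 higher, against 1406 and 1048 of 14604 genes. In 23 of the 66 all HFD values were below all RC values, against 5.35% of all genes. The list and that of the proton pump were made after values were seen, so these counts are descriptions. The mean level of the 66 genes was 5.94, 5.91, 5.96 and 5.84 log2 CPM in HFD libraries 1 to 4 and 6.03, 6.06, 6.09 and 6.03 in the RC libraries. The median difference was -0.128 within libraries 1 and 2 and -0.196 within libraries 3 and 4, and it was -0.152 without HFD libraries 3 and 4 as well.

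The factors of the TFEB family, which drive lysosomal genes, bind an extended E-box, and the E-box itself is bound by many factors including those of the clock. The E-box CACGTG was found in the promoter window of 16 of 51 lysosomal genes with an entry (31.4%), against 8.09% of all genes in the table and 11.4% of those expressed here. The extended form TCACGTGA, which contains it, was found in 7 of the 51 (13.7%), against 1.12% and 2.1%. Both were searched on both strands. Of the 99 lower called genes with an entry, 7 (7.07%) hold the E-box and 1 (1.01%) the extended form. Of the 23 higher ones, 2 (8.7%) and 0 hold them. None of these shares was above that of the expressed genes, so the motifs mark the list and not the called genes as a set. Gla is shown with its extended E-boxes in capitals, and Lamp1 with its E-boxes in capitals, as the called members that hold 2 and 4 of them. They lie at chrX:134601006-134601255 on the minus strand (Gla) and chr8:13158911-13159160 on the plus strand (Lamp1).
Gla: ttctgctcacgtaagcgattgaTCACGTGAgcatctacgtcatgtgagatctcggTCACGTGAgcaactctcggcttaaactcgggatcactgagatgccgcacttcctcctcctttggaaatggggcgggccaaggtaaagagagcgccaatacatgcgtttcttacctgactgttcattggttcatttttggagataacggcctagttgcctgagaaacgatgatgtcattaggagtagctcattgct
Lamp1: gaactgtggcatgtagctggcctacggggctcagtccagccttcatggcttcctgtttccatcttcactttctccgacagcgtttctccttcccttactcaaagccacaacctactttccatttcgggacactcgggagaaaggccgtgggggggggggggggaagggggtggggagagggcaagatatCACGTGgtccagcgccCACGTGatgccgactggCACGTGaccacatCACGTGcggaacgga
In Lamp1 the first of the 4 sites begins 61 bases before the gene start, and in Gla the first begins 228 bases before it.

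Gla, which encodes alpha-galactosidase A, stood at 3.46, 3.31, 3.41 and 3.54 log2 CPM under HFD and 3.63, 3.85, 3.88 and 3.78 under RC. The groups did not overlap, and the fall of 0.36 ± 0.08 (adjusted p = 0.0124) was the same size in both pairs (-0.36 and -0.35). Hexa, the alpha subunit gene of beta-hexosaminidase, fell by 0.50 ± 0.11 (adjusted p = 0.0124), from 7.78, 7.88, 7.96 and 7.83 under RC to 7.52, 7.58, 7.27 and 7.09 under HFD. Lamp1, the gene of a main protein of the lysosomal membrane, fell by 0.23 ± 0.06 (adjusted p = 0.0357), with HFD values from 9.34 to 9.49 and RC values from 9.57 to 9.70. The carboxypeptidase gene Scpep1 fell by 0.31 ± 0.07 (adjusted p = 0.0257), the cathepsin B gene Ctsb by 0.24 ± 0.06 (adjusted p = 0.0445) and the membrane protein gene Laptm4a by 0.22 ± 0.06 (adjusted p = 0.0386). Each of these 6 genes had its 4 HFD values below its 4 RC values.

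The vacuolar proton pump acidifies lysosomes and insulin granules. Of 18 subunit genes 2 fell (11.1%, against 1.04% of all genes), with a median of -0.211. Below 0 lay 17 of them, against 51.3% of all genes. At an unadjusted p under 0.05 there were 14 lower and 0 higher, against 1406 lower and 1048 higher of 14604 genes. All HFD values were below the RC values in 10 of the 18, against 5.35% of all genes. The list's mean level was 6.51 to 6.70 log2 CPM under HFD and 6.75 to 6.83 under RC. Atp6v1b2, a subunit gene of the pump's V1 domain, stood at 8.37, 8.43, 8.37 and 8.37 under HFD and 8.56, 8.62, 8.61 and 8.53 under RC, a fall of 0.19 ± 0.05 (adjusted p = 0.0296). The difference was small and the same in both pairs (-0.19 and -0.20). The accessory subunit gene Atp6ap1 fell by 0.25 ± 0.06 (adjusted p = 0.0267). Of 13 pump genes with an entry, 4 (30.8%) hold the E-box and 3 (23.1%) the extended form, against 11.4% and 2.1% of the expressed genes. Gabarapl2, an autophagy gene, fell by 0.22 ± 0.06 (adjusted p = 0.0488).

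Per3 and Hlf were the clock genes that rose. The clock runs on a loop in which BMAL1 (Arntl) and its partners CLOCK or NPAS2 drive the Period and Cryptochrome repressors and the PAR bZIP factors Dbp, Tef and Hlf, which bind the D-box. Per3 and Hlf were 2 of 19 clock genes (10.5%, against 1.04% of all genes), and none fell, with a median of 0.474. At an unadjusted p under 0.05 there were 9 higher and 3 lower, against 1048 and 1406 of 14604 genes. The time of day of islet collection is not given in the sources used here. Clock genes were already known from earlier results of these data to move with the diet, so their count is no independent support. The D-box TTANGTAA was searched on both strands. Among the 23 higher genes with an entry, Per3 and Slc26a8, an anion transporter gene, hold it in the promoter window (8.7%). It was also found in 3 of the 99 lower genes with an entry (3.03%). The share was 2.72% of all genes in the table and 1.83% of those expressed here. The 250 bases before the start of Per3 are shown with its 2 D-boxes in capitals, from chr4:151044666-151044915 on the minus strand.
Per3: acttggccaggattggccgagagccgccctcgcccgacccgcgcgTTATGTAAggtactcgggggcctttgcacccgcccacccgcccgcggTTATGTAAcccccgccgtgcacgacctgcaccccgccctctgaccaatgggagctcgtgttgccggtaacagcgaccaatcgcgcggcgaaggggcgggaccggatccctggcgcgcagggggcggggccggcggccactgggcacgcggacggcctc
The first of these begins 205 bases before the gene start. The E-box was found in 5 of 16 clock genes with an entry (31.2%), against 11.4% of the expressed genes. The D-box was found in 1 of the 16 (6.25%), against 1.83%.

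Per3 (ENSMUSG00000028957.12, GRCm38 chromosome 4 from 151003652 to 151044665) stood at 5.08, 4.42, 5.57 and 5.92 log2 CPM under HFD and at 4.52, 3.72, 3.36 and 3.80 under RC. HFD library 2 lay just under RC library 1, and the difference was 0.63 within libraries 1 and 2 and 2.16 within libraries 3 and 4. Hlf stood at 3.52, 3.49, 4.91 and 5.27 under HFD and 3.66, 3.06, 2.83 and 3.08 under RC, a rise of 1.14 ± 0.29 (adjusted p = 0.0357). HFD libraries 1 and 2 lay inside the RC range, and its difference was 0.14 and 2.13 in the 2 pairs. Per2 had all HFD values (5.07 to 5.79) above all RC values (4.73 to 4.96) and stood at 0.67 ± 0.20 (adjusted p = 0.0681). Dbp stood at 1.18 ± 0.38 (adjusted p = 0.0963) and Tef at 0.79 ± 0.24 (adjusted p = 0.073), and RC library 1 was the highest RC library for both. The activators lay on the other side of 0, with Arntl at -0.95 ± 0.37 (adjusted p = 0.164) and Npas2 at -1.57 ± 0.57 (adjusted p = 0.136). The list median was 0.0335 within libraries 1 and 2 and 0.674 within libraries 3 and 4.

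Rbm3 (ENSMUSG00000031167.16), on the minus strand of chromosome X from 8138975 to 8145880 in GRCm38, was the highest of the rule-named genes. It stood at 5.87, 5.67, 6.57 and 6.86 log2 CPM under HFD and at 5.39, 4.64, 4.81 and 4.94 under RC, without overlap. The difference was 0.76 within libraries 1 and 2 and 1.84 within libraries 3 and 4. Rbm3 was the 1 gene called of 16 heat shock and cold-inducible genes (6.25%, against 1.04% of all genes), whose median was -0.235. Cirbp, the related cold-inducible gene, stood at 6.35, 6.44, 6.81 and 6.97 under HFD and 6.41, 5.68, 6.29 and 6.34 under RC (0.46 ± 0.24, adjusted p = 0.326).

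The other genes that rose did not share a list. Trpm2, which encodes a calcium-permeable cation channel, stood at 4.07, 3.60, 3.90 and 4.16 log2 CPM under HFD and at 3.49, 2.96, 3.14 and 3.13 under RC, a rise of 0.75 ± 0.16 (adjusted p = 0.0124). Its groups did not overlap, and it rose by 0.61 within libraries 1 and 2 and by 0.89 within libraries 3 and 4. Other rule-named genes were Vwa5b2 (0.55), the kinase gene of ion transport Wnk4 (0.49), the ferroptosis suppressor gene Aifm2 (0.45), the sodium-dependent bicarbonate exchanger gene Slc4a8 (0.36), the centriole protein gene Odf2 (0.33) and Med12, a Mediator subunit gene (0.28). Odf2 stood at 6.18, 6.14, 6.22 and 6.25 under HFD and 5.75, 5.81, 5.95 and 5.95 under RC (adjusted p = 0.0124), a small and even difference.

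Of the 26 higher genes, those outside that rule, named after their values were seen, include Cyp26b1 (described with the days), Per3, Hlf, Slc16a1, Aldoc and 10 others. The 10 were Slc26a8 (1.22), the receptor kinase gene Fgfr4 (1.01), Espnl (0.92), the matrix protein gene Ltbp2 (0.91), Trim7 (0.79), Ankrd34c (0.72), Dock6 (0.61), Nbeal2 (0.54), the potassium channel gene Kcnh6 (0.52) and the ribokinase gene Rbks (0.49). Kcnh6 stood at 6.59, 6.03, 6.49 and 6.58 under HFD and 6.08, 5.56, 5.94 and 6.03 under RC. In both diets library 2 was the lowest, and the groups overlapped through it.

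Cholesterol synthesis genes lay mostly above 0, with 1 of 25 called (4%, against 1.04% of all genes) and a median of 0.281. Above 0 lay 23 of the 25, against 7103 of all 14604 genes. At an unadjusted p under 0.05 there were 14 higher and 1 lower, against 1048 and 1406 of all genes. Voom called 3 higher. Hsd17b7, a reductase gene of the late pathway, rose by 0.69 ± 0.18 (adjusted p = 0.0386). It stood at 3.04, 3.11, 4.01 and 4.06 log2 CPM under HFD and at 2.77, 2.96, 2.75 and 2.97 under RC. The groups did not overlap, but nearly all of the gap lay in HFD libraries 3 and 4. Idi1, the isomerase gene of the early pathway, stood at 0.64 ± 0.19 (adjusted p = 0.0709) and Lss, the lanosterol synthase gene, at 0.37 ± 0.11 (adjusted p = 0.0645). The list median was 0.0572 within libraries 1 and 2 and 0.503 within libraries 3 and 4, and -0.00482 without HFD libraries 3 and 4. Scp2, a sterol carrier gene, fell by 0.29 ± 0.07 (adjusted p = 0.0297).

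In energy metabolism few genes were called. All 62 nuclear genes of oxidative phosphorylation were below 0, with a median of -0.133, and 1 of them was called (1.61%), Ndufs5, a complex I subunit gene that fell by 0.49 ± 0.13 (adjusted p = 0.0425). At an unadjusted p under 0.05 there were 22 lower and 0 higher. Over all 14604 genes 1.04% were called, 51.3% lay below 0, and 1406 were lower and 1048 higher at that p. Cox6a2, the muscle form of a cytochrome oxidase subunit, lies outside the list and stood at 5.81, 5.45, 3.08 and 2.46 log2 CPM under HFD and 5.81, 5.94, 5.98 and 5.71 under RC. HFD libraries 1 and 2 were at or near the RC level and HFD libraries 3 and 4 far below it, so that the fall of 1.66 ± 0.37 (adjusted p = 0.0194) was -0.25 within libraries 1 and 2 and -3.08 within libraries 3 and 4. Gm44850, a non-coding gene on the same strand nearby (GRCm38 chromosome 7 from 128215616 to 128220788, with Cox6a2 from 128205435 to 128206387), fell by 1.87 ± 0.40 (adjusted p = 0.0124) with the same pattern, at 5.56, 5.64, 2.72 and 2.02 under HFD.

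Of 34 genes of fatty acid oxidation 1 fell (2.94%, against 1.04% of all genes). It was Hadh, the hydroxyacyl-CoA dehydrogenase gene that beta cells hold at a high level, which fell by 0.34 ± 0.08 (adjusted p = 0.0297). Its values were 9.35, 9.47, 9.17 and 9.06 under HFD and 9.66, 9.62, 9.63 and 9.49 under RC, without overlap. Genes known to respond to fatty acids were not called, with Cpt1a, the carnitine palmitoyltransferase gene, at -0.11 ± 0.22 (adjusted p = 0.857), Pdk4 at -0.48 ± 0.25 (adjusted p = 0.338) and Fabp4 at 0.45 ± 0.29 (adjusted p = 0.457). Cpt1a was -0.52 within libraries 1 and 2 and 0.29 within libraries 3 and 4. In fatty acid synthesis limma called none of 18 genes, with 1 lower and 1 higher at an unadjusted p under 0.05, where voom gave 1 lower call. Hsd17b12, a gene of fatty acid elongation, fell by 0.46 ± 0.12 (adjusted p = 0.046).

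Slc16a1, the gene of a lactate and pyruvate carrier that beta cells keep silent, was low in all libraries and rose by 0.83 ± 0.23 (adjusted p = 0.0474). It stood at 1.18, 1.13, 1.02 and 0.54 log2 CPM under HFD and at 0.47, 0.47, -0.31 and -0.10 under RC. The groups did not overlap, though the lowest HFD value was close to the highest RC value. It was the 1 called gene of 21 beta-cell disallowed genes (4.76%, median 0.144) and of 21 genes of glycolysis and lactate (4.76%, median -0.0581), against 1.04% of all genes. Aldoc, an aldolase gene, rose by 0.63 ± 0.16 (adjusted p = 0.0406), with HFD libraries 3 and 4 at 4.55 and 4.75 and all 6 others between 3.36 and 3.59. Pgk1 stood at -0.32 ± 0.10 (adjusted p = 0.067), the malic enzyme gene Me1 at -0.38 ± 0.11 (adjusted p = 0.0637) and Txnip, a gene that glucose induces, at -0.01 ± 0.17 (adjusted p = 0.993). Lower genes of metabolism chosen after their values were seen were the N-acetylgalactosamine kinase gene Galk2 (-0.34), the phosphorylase kinase subunit gene Phkb (-0.48), the O-GlcNAcase gene Oga (-0.45), the malate dehydrogenase gene Mdh1 (-0.32), the ketone body enzyme gene Oxct1 (-0.40) and the monoamine oxidase gene Maob (-0.33).

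Genes of DNA replication and mitosis lay below 0 without a call. Limma and voom called none of 40, and the median was -0.5. Below 0 lay 38 of 40, against 51.3% of all genes. At an unadjusted p under 0.05 there were 14 lower and 0 higher, against 1406 and 1048 of 14604 genes. The list's mean level was 2.05, 2.19, 1.67 and 1.11 log2 CPM in HFD libraries 1 to 4 and 2.09 to 2.42 under RC, so HFD libraries 3 and 4 were the lowest. The median was -0.105 within libraries 1 and 2 and -0.878 within libraries 3 and 4. Mki67, the proliferation marker gene, stood at 2.97, 3.50, 2.52 and 1.43 under HFD and 3.02, 3.84, 3.25 and 3.67 under RC (-0.84 ± 0.43, adjusted p = 0.314). Cdk1, the kinase gene of mitosis, stood at -1.24 ± 0.45 (adjusted p = 0.136), Rrm2 at -0.65 ± 0.22 (adjusted p = 0.115) and Ccnd2, the main D-type cyclin gene of beta cells, at -0.24 ± 0.09 (adjusted p = 0.125). Outside the list Ctnnb1, the beta-catenin gene, fell by 0.28 ± 0.06 (adjusted p = 0.0225), and Rhoa, a small GTPase gene, by 0.23 ± 0.06 (adjusted p = 0.0266). Prlr, the prolactin receptor gene, stood at -0.70 ± 0.19 (adjusted p = 0.0525), and Ddc, which makes serotonin and dopamine, at -0.31 ± 0.08 (adjusted p = 0.0501).

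The remaining lists had no called gene by limma. Immediate early genes (16 in the table, median 0.192, 0 higher and 1 lower at an unadjusted p under 0.05) and genes of the cytosolic ribosome (75, median -0.00518, 1 higher and 0 lower) were among them, as were the 7 mitochondrially encoded genes (median 0.0511, 0 and 0). Chemokines and NF-kB targets (11, median 0.0457, 1 higher and 1 lower) and interferon-induced genes (32, median 0.0385, 2 higher and 0 lower) had none, and the 4 Reg family genes, which mark stressed or inflamed pancreas, had a median of 0.673 with 0 and 0, which was -0.173 without HFD library 2 and -0.605 with the acinar mean as covariate. Voom called none in any of these lists. Serotonin synthesis and lactogenic signalling (10, median -0.205, 0 higher and 2 lower) held 2 genes called lower by voom.

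**Figure D3:**
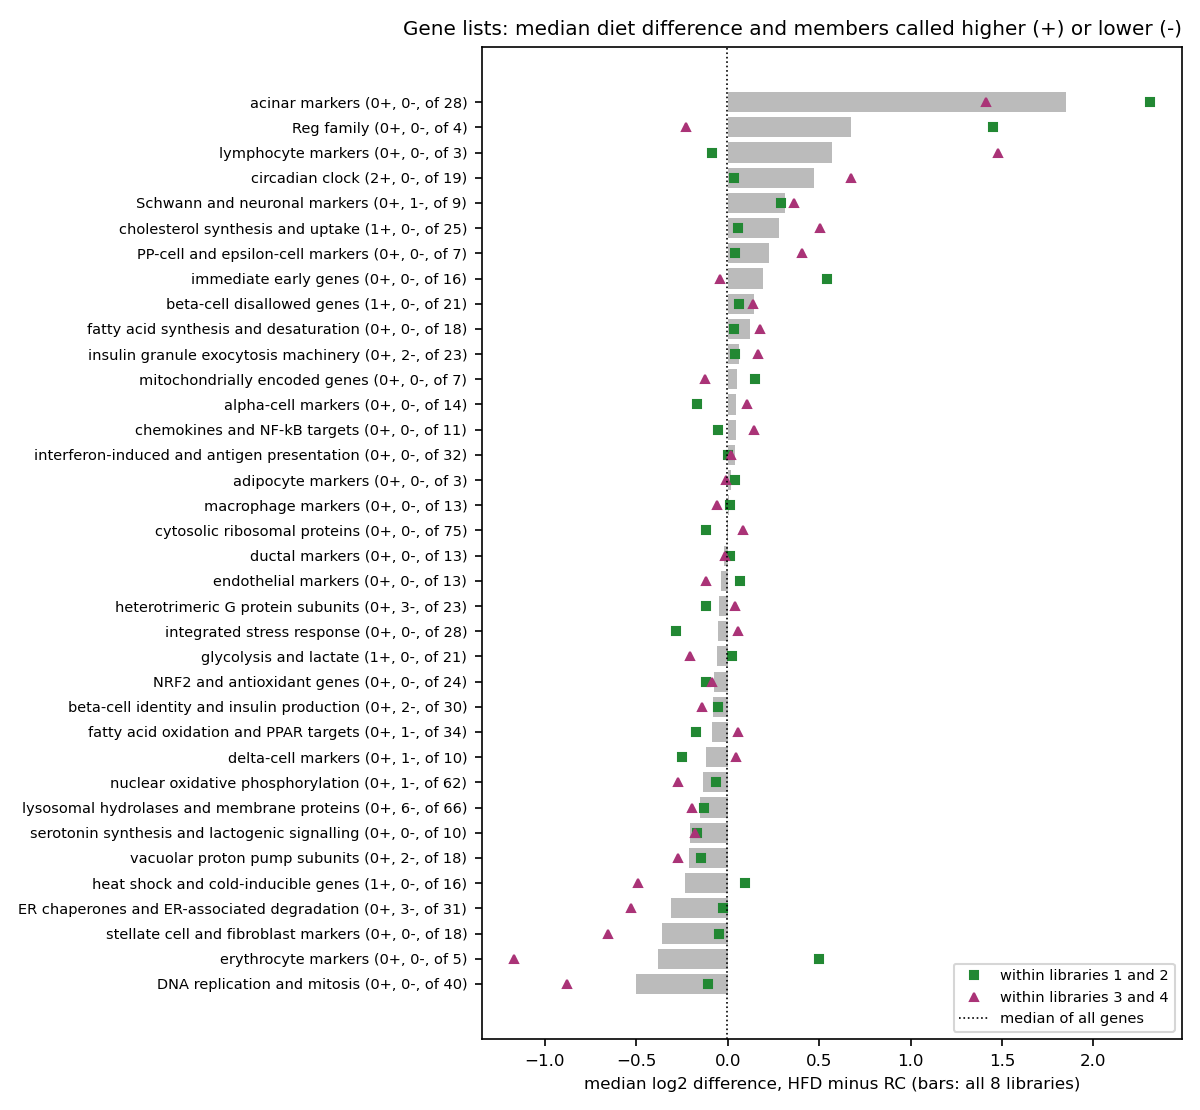
Median log2 difference (HFD minus RC, horizontal axis) of each gene list, with bars for all 8 libraries, squares for libraries 1 and 2 and triangles for libraries 3 and 4, and the counts of members called higher (+) and lower (-) after each name. The acinar list has the highest bar, at 1.85 with no called member, and the replication list the lowest, at -0.5.

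Markers of other cell types held few called genes. The 28 acinar genes, which mark the enzyme-secreting cells around the islets, were all above 0 with a median of 1.85. Limma and voom called none, with 21 higher and 0 lower at an unadjusted p under 0.05, and 6 had all HFD values above all RC values, against 4.50% of all genes. Their mean level was 5.53, 6.11, 3.52 and 5.65 log2 CPM in HFD libraries 1 to 4 and 2.95 to 3.83 under RC. HFD library 3 was at the RC level and the other HFD libraries were above it. Together these genes took 0.0968% to 0.626% of reads under HFD and 0.0619% to 0.113% under RC, and none was at 0 in any library. The trypsin genes Try5 (2.58 ± 0.83, adjusted p = 0.0945) and Try4 (2.21 ± 0.84, adjusted p = 0.158), which have near-identical copies that read counting may not separate, the granule gene Sycn (2.5 ± 0.85, adjusted p = 0.115) and the amylase gene Amy1 (0.97 ± 0.37, adjusted p = 0.154) did not pass the test. With the acinar mean as a covariate, an alternative chosen after seeing the data, all 152 calls remained among 711. The acinar mean was itself higher in HFD libraries 1, 2 and 4 than in any RC library, so this fit cannot set diet and acinar content apart.

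Of 10 delta-cell markers 1 fell (10%, against 1.04% of all genes), and the median was -0.119. This was Pdyn, the prodynorphin gene, which fell by 1.47 ± 0.40 (adjusted p = 0.0474). It stood at 6.69, 6.36, 5.23 and 4.88 log2 CPM under HFD and at 6.59, 7.46, 7.49 and 7.48 under RC. RC library 1 was at the level of HFD libraries 1 and 2, and the difference was -0.51 within libraries 1 and 2 and -2.43 within libraries 3 and 4. Of 9 Schwann cell and neuronal markers 1 fell (11.1%, against 1.04% of all genes), while the median of the list was 0.316 and 7 members were above 0. Edn3, the endothelin 3 gene, fell by 0.63 ± 0.16 (adjusted p = 0.0415).

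Stellate cell and fibroblast markers had a median of -0.358, with none of 18 called by limma or voom and 1 lower and 0 higher at an unadjusted p under 0.05. Their mean was 3.52, 3.26, 2.78 and 2.51 in HFD libraries 1 to 4 and 3.11 to 3.54 under RC, so HFD libraries 3 and 4 were below the RC range, and the median was 0.0298 without them. Fn1, the fibronectin gene, stood at -0.42 ± 0.66 (adjusted p = 0.815). Plod1, a collagen-modifying enzyme gene, fell by 0.55 ± 0.14 (adjusted p = 0.04), the matrix gene Matn2 by 0.88 ± 0.23 (adjusted p = 0.0415) and F13a1, a coagulation factor gene of macrophages, by 1.21 ± 0.33 (adjusted p = 0.048). Each of these had HFD libraries 3 and 4 as its lowest values, with F13a1 at 0.44 and 0.28 there against 2.13 or more elsewhere. Of 14 lymphocyte markers only 3 were in the table, and the B-cell gene Ms4a1 stood at 2.93 log2 CPM in HFD library 3 against -2.58 to -1.04 in the other 7 libraries. Alpha-cell markers (14 genes, median 0.048), PP-cell markers (7, 0.224), ductal (13, -0.0184), endothelial (13, -0.0391), macrophage (13, 0.00863), adipocyte (3, 0.0162) and erythrocyte markers (5, -0.381) held no call by limma or voom. At an unadjusted p under 0.05 they held 3 lower alpha-cell, 3 higher PP-cell, 1 lower ductal and 2 lower endothelial markers, and none of the other 3 lists. The part of these cell markers in the differences given above was not tested.

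**Figure D4:**
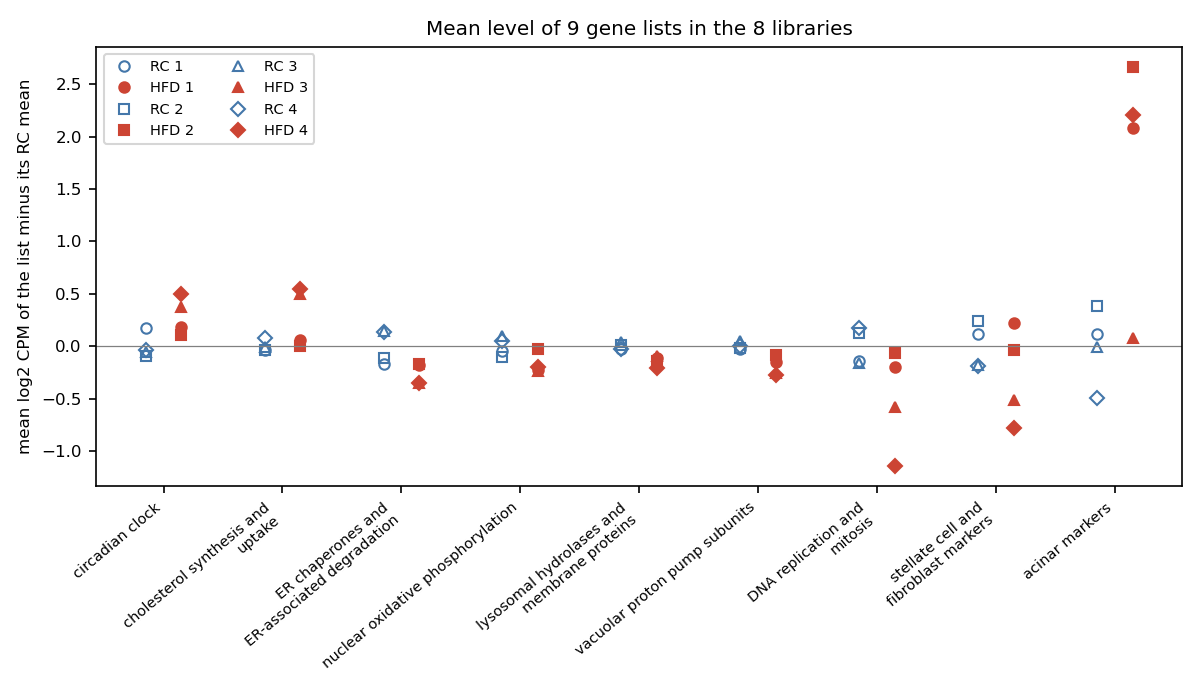
Mean log2 CPM of 9 gene lists in each library, minus the mean of the 4 RC libraries (vertical axis, log2 units), with open blue symbols for RC and filled red symbols for HFD, 1 shape per library number. HFD libraries 3 and 4 lie apart from HFD libraries 1 and 2 for the clock, cholesterol, ER, replication and stellate lists, the 4 HFD libraries lie together below RC for the lysosomal list, and HFD library 3 is the lowest HFD library for the acinar list.

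The same 152 genes were then followed in the C57BL/6J mice at days 5 and 33. Their levels did not enter the day 13 difference, but their libraries shared in the estimate of spread behind the calls. In the day 5 libraries every HFD title number is lower than every RC title number, so diet and number cannot be told apart there. At day 5 the diet difference had the same sign in 23 of the 26 higher and 124 of the 126 lower genes, with medians of 0.405 and -0.249. Over all genes, 69.7% of those above 0 at day 13 were above 0 at day 5, and 72.2% of those below 0 were below 0. Of the 152 genes, 37 were also called at day 5 (24.3% of the day 13 calls and 13.6% of the day 5 calls, 104 higher and 169 lower), where 1.87% of all genes were called, and 36 of them had the same sign on both days. Rbm3 differed by 1.33 at day 5, Per3 by 1.55, Hlf by 1.24, Trpm2 by 0.73, Odf2 by 0.36, Pdia6 by -0.65 and Canx by -0.38, each called there. Ucn3 differed by -0.18 and Gnas by -0.09 at day 5, and neither was called there. At day 33 the signs were the same in 22 and 112 genes, with medians of 0.231 and -0.118. There 57.8% of all genes above 0 at day 13 and 62.4% of those below 0 kept their sign. Limma called 0 genes at day 33, with 2180 at an unadjusted p under 0.05. The day 33 differences also ran with the GC content of genes (Spearman's rho 0.63, described further on).

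The difference between days was tested directly. The diet difference at day 13 differed from that at day 5 in 3 genes (0.0205%), Ide, Cyp26b1 and Il1b, with 511 at an unadjusted p under 0.05. The count was 1 without any single one of HFD library 3, HFD library 4, RC library 1 and RC library 2, and 1 by voom. With the title number as covariate it was 115. As diet and title number go together at day 5, these differences between days cannot be told apart from the number. Against day 33 limma called none (0%) and voom none, with 1139 at an unadjusted p under 0.05.

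Ide, the insulin-degrading enzyme gene, turned its sign. It fell by 0.62 ± 0.14 (adjusted p = 0.0194) at day 13 and was 0.74 higher under HFD at day 5, a difference of -1.35 (adjusted p = 5.9e-05). The day 13 values were 5.05, 5.10, 6.15 and 5.67 log2 CPM under HFD and 6.14, 6.00, 6.35 and 5.95 under RC. HFD libraries 1 and 2 were low and HFD libraries 3 and 4 near the RC level, the reverse of the pattern of most called genes (-0.99 within libraries 1 and 2 and -0.24 within libraries 3 and 4). In 15 other groups of the study, 57 libraries in all, Ide lay between 4.82 and 5.49, while day 5 HFD libraries of C57BL/6J lay between 5.75 and 6.27. The day 13 RC group of C57BL/6J, at 5.95 to 6.35, was therefore high against the rest of the study, and HFD libraries 1 and 2 lay at the usual level. Fgfbp3, a gene in the same stretch of chromosome 19 as Ide (Ide from 37268743 to 37337852, Fgfbp3 from 36917550 to 36919615, GRCm38), was looked at after values were seen. It stood at 1.80, 2.11, 3.24 and 2.83 under HFD and 3.39, 2.78, 3.29 and 2.74 under RC (-0.55 ± 0.25, adjusted p = 0.231), also with HFD libraries 1 and 2 lowest.

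Cyp26b1, which encodes an enzyme that breaks down retinoic acid, stood at 1.84, 0.71, 2.36 and 3.28 log2 CPM under HFD and at -2.48, -2.88, -1.23 and -1.29 under RC at day 13. The groups were far apart in both pairs (3.96 and 4.08), with a rise of 4.02 ± 0.94 (adjusted p = 0.0254). At day 5 the order was the other way round, the HFD mean being -0.48 ± 0.75 (SD, n = 4) and the RC mean 2.19 ± 0.79 (SD, n = 4), and the difference between days was 6.68 (adjusted p = 0.0321). The RC means at days 5, 13 and 33 were 2.19, -1.97 and 2.21, so the day 13 RC group was the low one among the chow groups of this strain. Il1b, an interleukin gene, differed little at day 13 (0.04 ± 0.28, adjusted p = 0.964) and stood at -1.94 at day 5, with a difference between days of 1.98 (adjusted p = 0.0321).

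In DBA/2J most of the called genes lay on the other side of 0, and in BALB/cJ the signs were mixed. By limma, HFD against RC at day 13 called 0 genes in DBA/2J, with 599 at an unadjusted p under 0.05. In BALB/cJ it called 1 gene, lower, with 2140 at that p. The signs in DBA/2J are thus those of differences that did not pass the test. At day 13 in DBA/2J the signs were the same in 8 of the 26 higher and 30 of the 126 lower genes, with medians of -0.132 and 0.0463, and in BALB/cJ in 13 and 65, with medians of 0.0262 and -0.00845. Of all genes above 0 in C57BL/6J, 42.3% were above 0 in DBA/2J and 43.1% in BALB/cJ, and of those below 0, 40.9% and 48.9% were below. Tested directly, the diet difference of C57BL/6J differed from that of DBA/2J in 2 genes (0.0137%), with 2117 at an unadjusted p under 0.05. The count was 10 without HFD library 1, 254 without HFD library 2, 1 without HFD library 3, 0 without HFD library 4, 102 without RC library 1, 0 without RC library 3 and 1 without RC library 4. From that of BALB/cJ it differed in none by limma (0%) or voom, with 2687 at an unadjusted p under 0.05. That count was 19 without HFD library 1, 45 without HFD library 2, 18 without RC library 1 and 1 without RC library 2.

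Those 2 genes were Slc35f1 and Adk. Slc35f1, a solute carrier family gene, stood at 3.54, 3.66, 2.42 and 2.37 log2 CPM under HFD and at 3.53, 4.04, 4.30 and 4.25 under RC in C57BL/6J, a fall of 1.03 ± 0.18 (adjusted p = 0.00284). In DBA/2J the HFD mean was 4.06 ± 0.10 (SD, n = 3) and the RC mean 3.66 ± 0.16 (SD, n = 4), and the strains differed by -1.44 (adjusted p = 0.0133). Adk, the adenosine kinase gene, fell by 0.40 ± 0.08 (adjusted p = 0.00317) in C57BL/6J, where HFD values of 5.91 to 6.37 lay below RC values of 6.42 to 6.55. Its DBA/2J means were 6.12 ± 0.03 for HFD (SD, n = 3) and 5.93 ± 0.11 for RC (SD, n = 4), a difference between strains of -0.60 (adjusted p = 0.0133). Ucn3 came close, at -0.59 against DBA/2J (adjusted p = 0.0789) and -0.68 against BALB/cJ (adjusted p = 0.0536).

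The diet differences ran with the GC content and length of genes, to degrees that varied between groups. Over 11240 genes with a mean above 2 log2 CPM, Spearman's rho between GC content and the diet difference was 0.116 in C57BL/6J at day 13, against 0.0137 at day 5, 0.63 at day 33, -0.471 in DBA/2J and 0.602 in BALB/cJ at day 13. With transcript length rho was 0.207 in C57BL/6J at day 13, against 0.121 at day 5, -0.193 at day 33, 0.141 in DBA/2J and -0.301 in BALB/cJ. These values are across genes, which are not independent replicates. The higher called genes had a median GC content of 52.1% and the lower ones 47.7%, against 49.5% over all, and median transcript lengths were 4511 bases in the higher, 3157 in the lower and 3557 in these 11240 genes. With each library corrected for GC content and length, 440 genes were called, 133 higher and 307 lower, with 135 of the 152 among them.

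**Figure D5:**
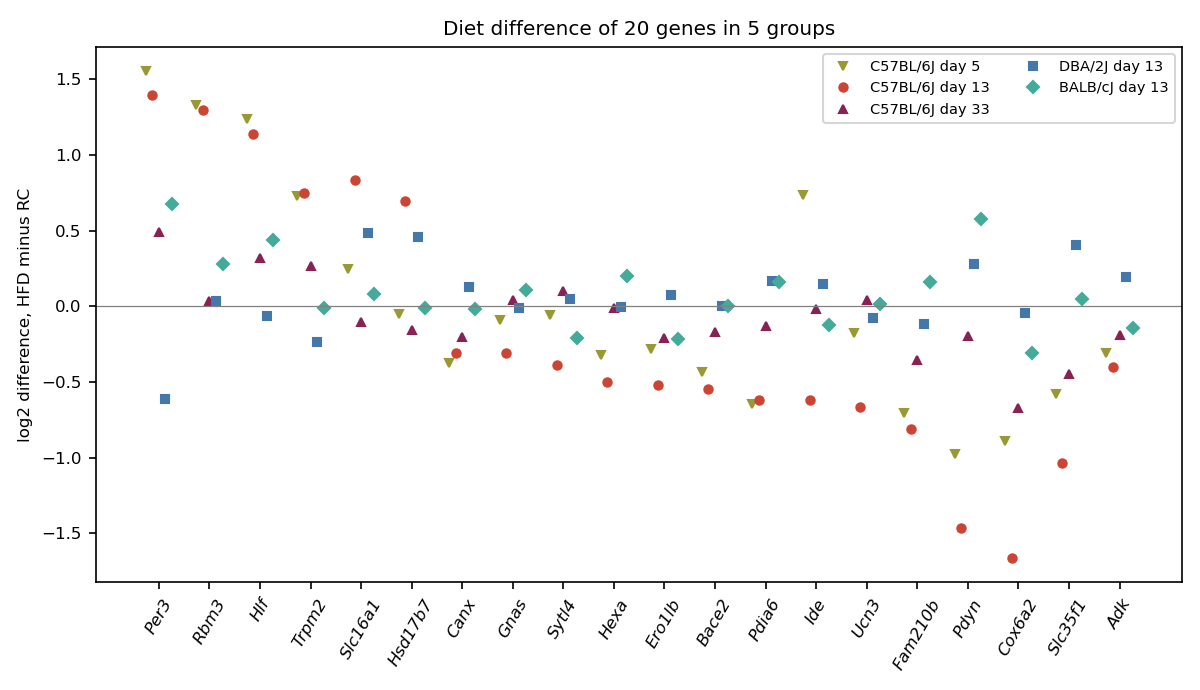
Log2 diet difference (HFD minus RC, vertical axis) of 20 named genes in 5 groups, C57BL/6J at days 5, 13 and 33 and DBA/2J and BALB/cJ at day 13, with 1 symbol per group. Most genes lie on the same side of 0 at days 5 and 13 in C57BL/6J, Ide lies on opposite sides, and Slc35f1 and Adk lie on opposite sides in C57BL/6J and DBA/2J at day 13.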

How the data were processed

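RNA of hand-picked islets was measured as log2 CPM for 14604 genes in 69 libraries, each from 1 mouse, and 3 more labelled samples are not analysed here. Per the submitters' processing notes the authors used STAR 2.5.3a, HTSeq 0.9.1 and edgeR with GRCm38. The strand setting is not given in the sources used here. The deposited log2 CPM values were normalized between libraries by the authors, and they give whole reads (within 0.05 of a whole number) for 100% of values. The lowest value, -3.54 log2 CPM, stands for 0 reads. Reads counted per library in this comparison ran from 19503715 to 27064179, which sets the precision of low genes, and replicates differed beyond sampling noise (chi-square per degree of freedom between 7.24 and 49.4).

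A limma model (3.58.1, R 4.3.3) with 1 mean per group of strain, diet and day was fitted to all 69 libraries, with a mean-variance trend, a two-sided test and Benjamini-Hochberg adjustment over all genes, threshold 0.05. The filter (log2 CPM above 0 in at least 4 libraries) removed 0 genes. Changes are given ± SE. Each p-value rests on variation between mice within groups, pooled over 18 groups. It does not measure the spread of the 8 libraries alone. For Car10 the SD was 0.49 among the HFD and 0.065 among the RC libraries of this comparison. The fit was also run on simulated data with independent noise and 1 spread per gene for all groups. Such data hold no unequal spreads and no libraries that move together, so the calls were not checked against these.

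Named genes were the called protein-coding genes without overlap between diets, outside the lowest 25% by level, up to 15 per direction, up to 4 members of lowest p in each list, the genes called for a difference between days or strains, and a fixed set of islet genes. Others are named as chosen after their values were seen, and a few genes are not reported here. The members and lists were chosen with earlier results of these data known, and the lysosomal, proton pump and G protein lists were added after values of this comparison were seen.

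Gene symbols came from the table, and 47 missing or altered ones from GENCODE M21, in which 14589 identifiers matched. Promoter sequences came from RefSeq on GRCm38.p6. Same-numbered HFD and RC libraries had correlations of 0.016, -0.045 and -0.0026 between their deviations from the group means. So few values gave no sign of a pairing by title number and cannot exclude one. The main fit did not pair the libraries. Alternatives changed the libraries in the fit, the pseudocount, the filter, the scaling, weights and covariates.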

Additional observations from a re-analysis of the deposited data

Results flagged for a closer look

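Of 338 groups of 4 libraries, 22 held 1 value far from the other 3 (a gap above Dixon's critical value for 4 samples). Chance alone flags about 5%, and the share flagged here was close to that. The flags of single libraries that follow are therefore descriptions, and any of them may be chance. RC library 1 was the library apart for the clock genes Dbp and Tef and the folding genes Canx and Hsp90b1. It held Dbp at 5.28 log2 CPM against 3.94 to 4.01 in the other RC libraries, and Tef at 6.44 against 5.87 to 5.95. It was low for Canx (9.55 against 9.83 to 9.88), Hsp90b1 (10.5 against 11 in the others), Pdyn (6.6 against 7.46 to 7.49) and Il1b (0.267 against 0.616 to 0.644), and high for Hmox1 (3.22 against 2.93 to 2.96).

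RC library 3 was the highest RC library for Bace2 (8.9 against 8.61 to 8.66), Gpr158 (7.87 against 7.73 to 7.75) and Sirpa (7.98 against 7.86 to 7.88). It was the lowest for Gcg (14.9 against 15.1) and the mean of alpha-cell markers (6.52 against 6.74 to 6.77), and its mean of chemokines and NF-kB targets was 3.46 against 2.83 to 2.94. RC library 2 had Cirbp at 5.68 against 6.29 to 6.41, and RC library 4 had Sycn at 2.14 against 3.11 to 3.31.

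HFD library 2 stood above the other HFD libraries in the mean of nuclear oxidative phosphorylation genes (5.67 against 5.46 to 5.49), of mitochondrially encoded genes (11.1 against 10.5 to 10.6), in Atp6v1b2 (8.43 against 8.37) and in Rhoa (7.9 against 7.73 to 7.74). HFD library 1 had Ppy at 11.3 against 11.7 to 11.8 and a mean of erythrocyte markers of 2.86 against 0.858 to 1.13. HFD library 3 held the B-cell gene Ms4a1 at 2.93 against -2.02 to -1.3.

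The diet difference at day 13 differed from that at day 5 for Ide (by -1.35), Cyp26b1 (6.68) and Il1b (1.98), and from that of DBA/2J for Slc35f1 (-1.44) and Adk (-0.597), each at an adjusted p under 0.05 by limma.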

How the results depend on the processing

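The calls moved with the libraries more than with the scale. The count of 152 called genes was 27 with only the C57BL/6J libraries, 0 with only the 8 libraries, 246 by voom, 2743 with array weights (1093 higher and 1650 lower), 440 with GC content and length corrected and 711 with the acinar mean as covariate (233 higher and 478 lower). It was 828 without HFD libraries 1 and 2 (260 higher and 568 lower), 1 without HFD libraries 3 and 4, and 0 to 544 when 1 library at a time was left out. With the title number as a replicate block in the 8 libraries, 0 genes were called, with 2589 at an unadjusted p under 0.05. The meaning of these numbers is not given in the sources used here.

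For day 13 minus day 5 (3 genes) the count was 1 with only the C57BL/6J libraries, by voom, with log2(CPM + 1) and with a mean above 2, 25 with array weights, 115 with the title number as covariate, 26 without HFD libraries 1 and 2, and 1 to 4 without single libraries. For day 13 minus day 33 (0 genes) it was 2976 with array weights, 1 without HFD libraries 3 and 4, 34 without HFD libraries 1 and 2, 2 with GC content and length corrected, and 0 to 1 without single libraries. For C57BL/6J minus DBA/2J (2 genes) it was 6 with log2(CPM + 1), 1207 with array weights, 26 centred on library medians, 38 with the title number as covariate, 7 with libraries 3 and 4 of both diets as a term, 1 without HFD libraries 3 and 4, 347 without HFD libraries 1 and 2, 116 with GC and length corrected, 248 with the acinar mean, and 0 to 254 without single libraries. For C57BL/6J minus BALB/cJ (0 genes) it was 19 with a mean above 2, 2106 with array weights, 7 with the range term, 1 without HFD libraries 3 and 4, 307 without HFD libraries 1 and 2, 108 higher and 177 lower with GC and length corrected, 931 with the acinar mean, and 0 to 45 without single libraries.

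Signs turned for genes that were not called: Nkx6-1 (0.0222), Fn1 (0.0123) and Il1b (-0.302) without HFD libraries 3 and 4, Cpt1a with array weights (0.138) and without HFD libraries 1 and 2 (0.0733), and Txnip with array weights (0.039), without HFD libraries 1 and 2 (0.179), with GC and length corrected (0.0357) and with the acinar mean (0.0705). Without single libraries Cpt1a ran from -0.257 to 0.0331, Txnip from -0.109 to 0.0854, Mafa from -0.256 to 0.118, Fn1 from -0.643 to 0.0113 and Il1b from -0.115 to 0.214. The cause was not tested. Of 84 called genes named, voom ended 4 calls, log2(CPM + 1) 2 and centring 1. The stricter filter (a mean above 2 log2 CPM) left 8 of the 84 untested, among them Cyp26b1 and Slc16a1, and ended none of the other 76 calls. Settings that left out pairs of libraries or added the number ranges, GC content or the acinar mean were chosen after seeing the data. The edgeR and DESeq2 tests that had been planned were not run, as the deposited values are log2 CPM. Genes near the floor of -3.54 log2 CPM are limited by depth.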
